A study of Sus scrofa with 6 samples.

Results

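The genes described here are PGR, the progesterone receptor, ESR1, the oestrogen receptor alpha, NR3C1, the glucocorticoid receptor, and HSD11B2, the dehydrogenase that turns cortisol into inactive cortisone. They were chosen by name: every probe set whose only gene symbol in the platform annotation is one of these was taken, which gave 7 of 23999 probe sets for 4 of 6567 named genes. NR3C1 had 4 probe sets and each of the others had 1. The study measured gene expression in sow ovary and in tissue labelled myometrium from pigs that were non-pregnant, early pregnant or late pregnant, without any treatment or genetic change. Its design text counts 9 pigs, 3 per stage, but it yielded 6 arrays, each the single array of its tissue and stage. The sources used here do not say whether RNA was pooled from several pigs, nor do they give the day of gestation, the stage of the oestrous cycle in the non-pregnant pigs, breed or age.

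Steroid receptors are transcription factors that bind their hormone and then change the output of target genes. In the uterus, oestrogen acting through ESR1 induces PGR, while progesterone tends to lower both receptors, and in the pig the uterine epithelium loses PGR before the conceptus attaches whereas stroma and muscle keep it. NR3C1 is activated by cortisol, and HSD11B2 is known from kidney and placenta as an enzyme that keeps cortisol away from receptors inside a cell or beyond a barrier.

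The values are MAS5 signals, a brightness per probe set in arbitrary units that the authors scaled to the same trimmed mean on every array. Signals of one probe set were compared between arrays, and signals of different probe sets were not compared. Signals under a floor of 81.7, the 40th percentile of all signals, were raised to it before a ratio was taken, and a ratio with one array at the floor is a bound. With 1 array in each group there is no spread within a group, so stages within a tissue could not be tested. Between 57.4% and 61.6% of probe sets lay above the floor on each array. The GAPDH control, read near its 3' and its 5' end as a sign of RNA quality, gave ratios of 3' to 5' signal of 2.74 to 4.90 in one control pair and 1.51 to 2.33 in another, both highest on the non-pregnant ovary array, and 1.19 to 1.64 in the last pair, highest on the early pregnant array labelled myometrium.

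The arrays labelled myometrium, the muscle wall of the uterus, carried strong epithelial signal at every stage. All 13 epithelial markers on the array lay above the floor on each of them, with a summed signal of 49730 to 60480, against 1384 to 1743 in ovary. Smooth muscle markers were present but not higher than in ovary: their sum was 26294, 38116 and 41820.5 on the non-pregnant, early pregnant and late pregnant arrays labelled myometrium and 46663 to 73186 in ovary. MYLK, the kinase of smooth muscle myosin, lay under the floor on the non-pregnant array labelled myometrium, and the muscle filament protein DES on the early pregnant one. Trophoblast is the outer layer of the conceptus, and its markers separated the non-pregnant from the pregnant arrays labelled myometrium. Their summed signal was 975.2 on the non-pregnant array labelled myometrium, 59829 on the early pregnant and 72981 on the late pregnant one, led by PLET1 and the pregnancy-associated glycoprotein PAG6. On the non-pregnant array 3 of 9 trophoblast markers lay above the floor, and on the pregnant arrays 9 and 8 did. In ovary the trophoblast sum was 1617.2, 3040.6 and 803.2 in order of stage. PLET1 read 1660.9 and PAG6 239.8 on the early pregnant ovary array, against 140 and 36.6 on the non-pregnant one.

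**Figure D1:**
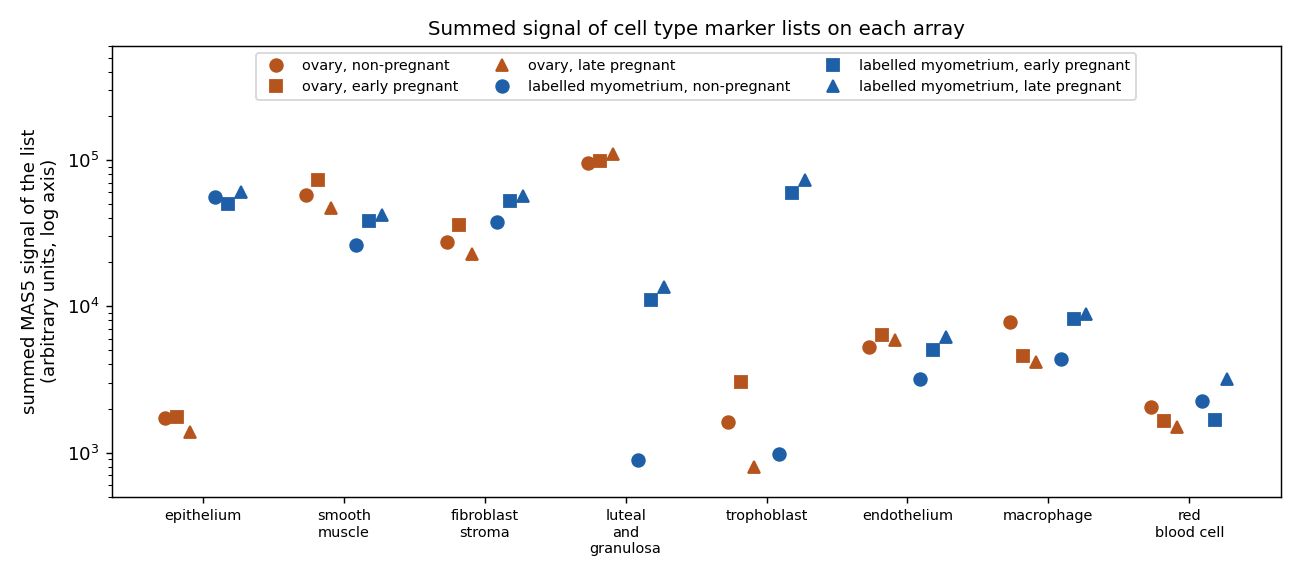
Summed MAS5 signal (log axis, arbitrary units) of each list of cell type markers, 1 point per array, with ovary in brown and tissue labelled myometrium in blue and the stages as circles, squares and triangles. The trophoblast sum is 975.2 on the non-pregnant and 59829 and 72981 on the pregnant arrays labelled myometrium, while the epithelial sum there stays between 49730 and 60480.

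PGR was far lower on both pregnant arrays labelled myometrium than on the non-pregnant one. Its signal there was 1498.2 on the non-pregnant, 215.6 on the early pregnant and 99.4 on the late pregnant array. In ovary it was 127.9, 141.6 and 128.1 in the same order, a mean of 133 ± 7.85 (SD, n = 3 arrays of different stages). The non-pregnant array labelled myometrium thus stood alone as high, and the late pregnant one was the lowest of all 6, not far above the floor. Early pregnancy was 6.95-fold lower than the non-pregnant array (log2 ratio -2.80), and late pregnancy was 15.1-fold lower (-3.91). Of all measured probe sets, 0.335% had a ratio at least as low in the early and 0.2% in the late comparison. Late against early pregnancy gave a further 2.17-fold lower signal.

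ESR1 followed the same course in tissue labelled myometrium, where it was 902.2 on the non-pregnant, 98.6 on the early pregnant and 67.8 on the late pregnant array. In ovary it ran the other way, with 92.4 on the non-pregnant, 232.7 on the early pregnant and 231.4 on the late pregnant array. The order of the arrays was therefore the non-pregnant array labelled myometrium first, then the pregnant ovary arrays, and then the other three, of which the late pregnant array labelled myometrium lay under the floor. Against the non-pregnant array labelled myometrium, ESR1 was 9.15-fold lower in early pregnancy (log2 ratio -3.19) and at least 11.04-fold lower in late pregnancy. In ovary it was 2.52-fold higher in early and 2.50-fold higher in late pregnancy than on the non-pregnant array. Markers of other cells differed between the same ovary arrays: the summed signal of 8 macrophage markers was 7826, 4571 and 4159 in order of stage, with 3 and 4 of the 8 lower by 2-fold or more in early and late pregnancy. Of 8 fibroblast markers 2, LUM and THY1, were 2-fold or more higher in both pregnancies. The median log2 ratio of all 8 was 0.46 in early but -0.51 in late pregnancy. The fibroblast sum in ovary was 27639, 35927.4 and 22794.7 in order of stage, lowest in late pregnancy. Of 12 smooth muscle markers 5 were 2-fold or more higher in early and 0 in late pregnancy. Of all measured probe sets, 4.59% passed 2-fold in either direction in early and 6.57% in late pregnancy. The part of the marked cells in the ESR1 signal was not tested. The pregnant ovary arrays differed by 1.01-fold.

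Over the 6 arrays PGR and ESR1 correlated at a Pearson's r of 0.84 on the log2 scale, a description in which the non-pregnant array labelled myometrium is the high point for both. In whole tissue, fewer cells of a type and less RNA in each cell cannot be told apart. The epithelial sum was 55534 on the non-pregnant and 49730 and 60480 on the pregnant arrays labelled myometrium. The smooth muscle sum and the fibroblast sum (37629, 52499 and 56819 in order of stage) were higher on the pregnant arrays. The fibroblast markers did not move together: THY1 read 1182.6, 15460 and 21301.5 and LUM 15608.4, 12122.3 and 8086.7. Their median log2 ratio was 0.12 in early and -0.15 in late pregnancy, beside -0.17 and -0.14 for all measured probe sets. The trophoblast sum was higher on the arrays where PGR and ESR1 were lower, as were the endothelial, macrophage, and luteal and granulosa sums. The macrophage sum was higher mostly through AIF1, which read 1136.5, 6127.4 and 5016.3. The median log2 ratio of the macrophage markers was -0.75 in early and 0.11 in late pregnancy. The luteal and granulosa sum was higher through STAR, CYP11A1 and HSD3B1. The part of the cells on these lists in the lower PGR and ESR1 signals was not tested.

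**Figure D2:**
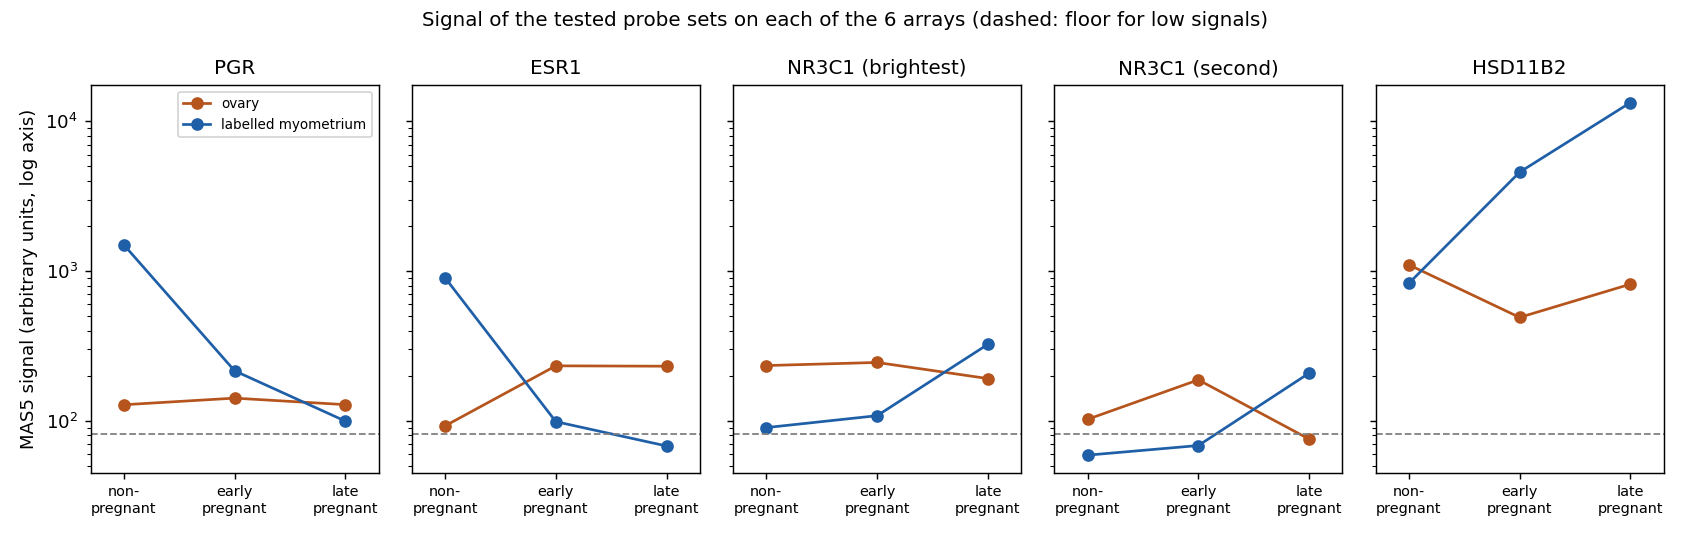
MAS5 signal (log axis, arbitrary units) of the 5 tested probe sets on each array, with stage on the horizontal axis, ovary in brown and tissue labelled myometrium in blue. Lines join the arrays of a tissue, which are different pigs, and the dashed line is the floor of 81.7. PGR and ESR1 drop from 1498.2 and 902.2 to 99.4 and 67.8 on the blue line, while HSD11B2 climbs from 827.9 to 13354.1.

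NR3C1 had its highest signal on the late pregnant array labelled myometrium and its lowest on the non-pregnant one. The brightest of its probe sets gave 90, 108.1 and 324 in order of stage in tissue labelled myometrium. In ovary it gave 233.7, 245.1 and 191.3, a mean of 223 ± 28.3 (SD, n = 3 arrays of different stages). The ovary arrays thus lay between the late pregnant array and the other arrays labelled myometrium, and the tissues overlapped. Late pregnancy was 3.60-fold higher than the non-pregnant array labelled myometrium and 3.00-fold higher than the early pregnant one, while early pregnancy and non-pregnancy differed by 1.20-fold.

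A second NR3C1 probe set put the 6 arrays in the same order. It gave 58.9, 68.3 and 208.1 in tissue labelled myometrium and 102.2, 187.6 and 75.4 in ovary, with 3 arrays above the floor, so late pregnancy was at least 2.55-fold higher than the non-pregnant array labelled myometrium. The pair correlated at r = 0.79 over the 6 arrays. The other NR3C1 probe sets carried little signal. One was above the floor on 1 array, the early pregnant one labelled myometrium, at 103.7, and the other lay between 2.9 and 33.0 throughout, so neither was tested. Averaging all 4 gave a log2 ratio of 0.80 between the late pregnant and the non-pregnant array labelled myometrium, in place of 1.85 for the brightest.

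HSD11B2 was higher at each later stage of tissue labelled myometrium, with the highest signal on the late pregnant array. It read 827.9 on the non-pregnant, 4576.8 on the early pregnant and 13354.1 on the late pregnant array. In ovary it read 1101.4, 490.2 and 817.4, which placed the non-pregnant array labelled myometrium inside the range of the ovary arrays and both pregnant ones well above it. The signal was 5.53-fold higher in early pregnancy (log2 ratio 2.47) and 16.1-fold higher in late pregnancy (4.01) than on the non-pregnant array. Of all measured probe sets, 2.02% and 0.93% had ratios at least as high. In ovary the early pregnant array was 2.25-fold lower than the non-pregnant one, and the late pregnant array was 1.67-fold higher than the early pregnant one. The trophoblast sum was also higher on both pregnant arrays labelled myometrium. So were the endothelial sum (3204.1, 5037 and 6142.5 in order of stage) and the luteal and granulosa sum (886.6, 10958.9 and 13571.6). Of the 13 luteal and granulosa markers 4, 7 and 4 lay above the floor. The higher sum came from STAR (13.2, 5573 and 6906.8), CYP11A1 (22.1, 1502.2 and 4452) and HSD3B1 (64.1, 3100.8 and 1822). LHCGR, INSL3, NR5A1, FSHR, AMH and MRAP lay under the floor on each array labelled myometrium. INHA, NR5A2 and RLN2 read at most 150.4 there, and FST read 382.5, 286.1 and 82. The macrophage sum (4364.6, 8228.2 and 8850.6) was higher too, but the median log2 ratio of its markers was -0.75 in early and 0.11 in late pregnancy. The part of these cells in the HSD11B2 signal was not tested.

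By stage, 2 of the 4 genes were 2-fold or more lower and 1 was higher on the early pregnant array labelled myometrium, where 10.3% of all measured probe sets were lower and 8.76% higher. In late pregnancy 2 were lower and 2 higher, where 12.6% were lower and 10.9% higher. In ovary, where 4.59% of probe sets passed 2-fold between early pregnancy and non-pregnancy and 6.57% between late pregnancy and non-pregnancy, 2 of the 4 genes passed in the first comparison and 1 in the second. Late against early pregnancy gave 2 higher and 1 lower in tissue labelled myometrium (5.87% and 5.62% of all measured probe sets) and 0 in ovary (4.2% in either direction). Between the tissues 3 of the 4 genes passed 2-fold in the non-pregnant pair of arrays, 3 in early pregnancy and 2 in late pregnancy, where 17.4%, 23% and 24.6% of probe sets did. Both pregnant arrays of a tissue are set against the same non-pregnant array, so these comparisons share it. The median log2 ratio of all measured probe sets was -0.17 for early and -0.14 for late pregnancy in tissue labelled myometrium, and -0.060 and -0.025 once each array was centred on its median.

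**Figure D3:**
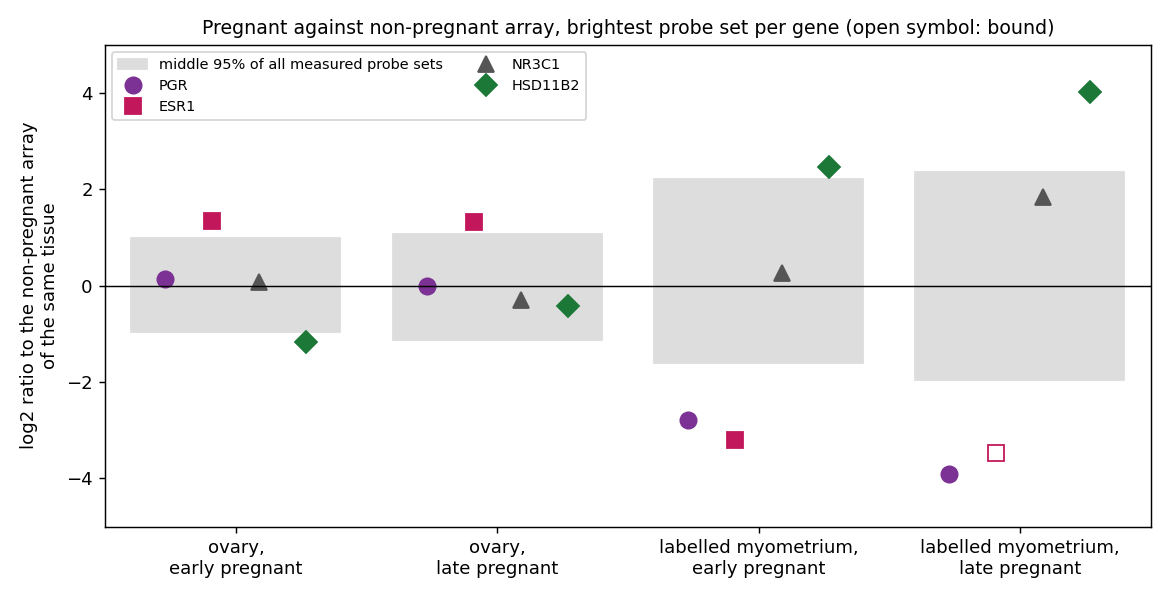
Log2 ratio of each pregnant array to the non-pregnant array of the same tissue for the brightest probe set of each gene, with the middle 95% of all measured probe sets as a grey block and an open symbol where the ratio is a bound. In tissue labelled myometrium PGR and ESR1 lie under the block at -2.80 to -3.91 and HSD11B2 lies above it at 2.47 and 4.01. NR3C1 lies inside it at 0.26 and 1.85.

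The tissues could be compared over the 3 stages with limma, which fitted both factors to the 6 arrays and tested each probe set with 2 or more arrays above the floor. Of the 7 probe sets, 5 were tested, and 0 passed an adjusted p of 0.05, at which 5.07% of all tested probe sets were called. Unadjusted, 1 had a p under 0.05, that of HSD11B2, as had 21.9% of all tested probe sets. These p-values measure agreement across arrays of different stages and not across pigs.

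HSD11B2 had a log2 difference, ovary minus myometrium, of -2.28 ± 0.83 (SE, limma adjusted p = 0.189). The gap differed by stage, with ovary 1.33-fold higher in the non-pregnant pair of arrays, 9.34-fold lower in the early pregnant and 16.3-fold lower in the late pregnant pair. Without the non-pregnant arrays, the pair with the opposite sign, the difference was -3.63 and passed (limma adjusted p = 0.0313). That fit had 1 residual degree of freedom in place of 2 and called 398 of 15882 tested probe sets. PGR differed by -1.26 ± 0.75 (SE, limma adjusted p = 0.388), which rested on the non-pregnant pair: there ovary was 11.7-fold lower, in early pregnancy it was 1.52-fold lower, and in late pregnancy it was 1.29-fold higher. Without the non-pregnant arrays the PGR difference was -0.12.

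ESR1 changed side between the stages. Ovary was 9.76-fold lower in the non-pregnant pair, 2.36-fold higher in the early pregnant pair and at least 2.83-fold higher in the late pregnant pair. The fitted difference of -0.18 ± 0.95 (SE, limma adjusted p = 0.936) is a mean over these opposed values, and without the non-pregnant arrays it was 1.37 (limma adjusted p = 0.0808). NR3C1 differed by 0.60 ± 0.48 (SE, limma adjusted p = 0.521), with ovary 2.60-fold higher in the non-pregnant and 2.27-fold higher in the early pregnant pair and 1.69-fold lower in the late pregnant pair. Without the late pregnant arrays it was 1.28 (limma adjusted p = 0.163), and without the non-pregnant arrays 0.21. With all NR3C1 probe sets averaged it was 0.14. The second NR3C1 probe set differed by 0.058 ± 0.48 (SE, limma adjusted p = 0.960).

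A stage change shared by both tissues was not called for any of the genes. The lowest adjusted p among them was 0.711, for PGR and HSD11B2 between late pregnancy and non-pregnancy, with log2 changes of -1.96 ± 0.91 and 1.79 ± 1.02 (SE, limma). In each stage contrast limma called 0 of 15882 probe sets (0%), while 686 (4.32%), 964 (6.07%) and 261 (1.64%) had an unadjusted p under 0.05 for early against non-pregnant, late against non-pregnant and late against early. None of the 5 probe sets was among these, the lowest unadjusted p being 0.0778 for PGR.

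Of 12 receptor genes listed, 7 had a probe set and 6 were tested, PGR, ESR1 and NR3C1 among them. PAQR8, a membrane progestin receptor, was lower in ovary (log2 difference -2.82 ± 0.44, SE, limma adjusted p = 0.0279) and read 786.6, 1848.3 and 1352.3 on the arrays labelled myometrium in order of stage, highest where PGR was already low. The other 5 did not pass, where 5.07% of all tested probe sets did. PGRMC1, a membrane-associated progesterone-binding protein, read 4474.9, 4505 and 2566.5 there and 6869.9 to 8499.9 in ovary, and PAQR7, another membrane progestin receptor, read between 103.3 and 201.3 on all arrays. ESR2, the oestrogen receptor beta, lay under the floor on all 6 arrays.

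HSD11B1, which regenerates cortisol from cortisone and so works against HSD11B2, was also higher on the pregnant arrays labelled myometrium. It read 1234.1, 4461.2 and 4110.1 there in order of stage and 862.2, 1422.4 and 1321.3 in ovary. Its log2 ratios to the non-pregnant array labelled myometrium were 1.85 in early and 1.74 in late pregnancy, and its late to early ratio was -0.12, while that of HSD11B2 was 1.54. Its tissue difference was -1.27 ± 0.30 (SE, limma adjusted p = 0.0772). CYP17A1, the enzyme that leads from progestins to androgens, read 6.4, 218.1 and 92.4 on the arrays labelled myometrium, a log2 ratio of 1.42 or more in early pregnancy. SERPINA6, which carries cortisol in blood, lay under the floor throughout. Of 3 measured genes of this group 3 were 2-fold or more higher in early and 2 in late pregnancy against non-pregnancy. HSD11B2 is itself among them, and CYP17A1 counts in early pregnancy by a bound. The median log2 ratio was 1.85 and 1.74 beside -0.17 and -0.14 for all measured probe sets, of which 8.76% and 10.9% were higher.

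Among the chaperones that hold steroid receptors ready for hormone, FKBP5, which lowers the hormone affinity of the receptors, was higher in ovary (log2 difference 1.997 ± 0.28, SE, limma adjusted p = 0.0223), as was the HSP70 partner DNAJA1 (1.13, limma adjusted p = 0.0411). These were 2 of 15 tested, where 5.07% of all tested probe sets passed. The median was 0.073 beside 0.013 for all tested probe sets. On the late pregnant array labelled myometrium 4 of 15 chaperones were 2-fold or more lower than on the non-pregnant one and 0 were higher. Of all measured probe sets 12.6% were lower and 10.9% higher. The 4 lower chaperones were FKBP5 (log2 ratio -1.36), FKBP4 (-1.30), the cyclophilin PPID (-1.23) and HSPA4 (-1.12). FKBP5 read 1067.3, 1077.5 and 416 on the arrays labelled myometrium and 3621.3, 3212.5 and 2613.3 in ovary, and the tissues did not overlap. In early pregnancy 0 of 15 chaperones passed 2-fold in either direction, where 8.76% of all measured probe sets were higher and 10.3% lower.

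Of 8 tested coregulators and partner factors, NCOA4 was higher in ovary (log2 difference 1.19, limma adjusted p = 0.0314) and GATA2, which opens chromatin for PGR in the uterus, was lower there (-2.65, limma adjusted p = 0.0326). No other of the 8 passed, where 5.07% of all tested probe sets did. GATA2 read 886.8, 810.7 and 1243.2 on the arrays labelled myometrium and so did not go down with PGR. FOXA2, a transcription factor of uterine glands, did go down with stage there, from 693.9 to 460.8 and 155.2, and lay under the floor in ovary. The coactivator NCOA2 read 713.1, 1521.7 and 1679.5 and the repressor PHB2 3267.8, 1759.6 and 1528.8. GATA3, a factor also on the trophoblast list, read 59.2, 3167.8 and 2777.6.

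Genes known to respond to oestrogen included several with far lower signal on the pregnant arrays labelled myometrium, where ESR1 was low, and some with higher signal. Of 14 measured, 6 were 2-fold or more lower and 2 higher in early pregnancy (median log2 ratio -0.75, and -0.17 for all measured probe sets, of which 10.3% were lower and 8.76% higher). Of 13 measured in late pregnancy 6 were lower and 4 higher (median -0.85, and -0.14 for all, of which 12.6% were lower and 10.9% higher). PGR is itself on this list. The scaffold protein PDZK1 read 1851.2, 116.6 and 25.1, a log2 ratio of -3.99 in early pregnancy. The chemokine CXCL12 (736.6, 100.6 and 105.1), the growth factor IGF1 (804.1, 230 and 139.1) and the carbonic anhydrase CA12 (591.4, 186.6 and 239.6) were lower as well. In ovary, where ESR1 was higher in pregnancy, CXCL12 read 1003.3, 1434.5 and 696.6 and IGF1 561.5, 641.8 and 604.9. The lysosomal protease CTSD went the other way in tissue labelled myometrium, with 768.3, 2760.7 and 6054.1, as did FOS, with 958.4, 2642.9 and 2120. TFF1 (122.1, 179.6 and 292.1) and MUC1 (193.4, 123.2 and 443.9) were 2-fold or more higher in late pregnancy only. A link of the genes on this list to the ESR1 signal was not tested. Between tissues 2 of 12 tested genes passed, as did 5.07% of all tested probe sets: complement C3 was higher in ovary (log2 difference 1.47, limma adjusted p = 0.0450), and KRT19, an epithelial keratin, was lower (-5.75, limma adjusted p = 0.00358).

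Genes regulated by progesterone in the uterus did not move together. Of 13 measured, 3 were 2-fold or more higher and 2 lower in early pregnancy in tissue labelled myometrium, and of 11 measured in late pregnancy 1 was higher and 4 lower. Of all measured probe sets 8.76% were higher and 10.3% lower in early and 10.9% and 12.6% in late pregnancy, and the list's median log2 ratios were 0.26 and 0.15 beside -0.17 and -0.14 for all. CALCR, the calcitonin receptor, read 1235.7, 36.7 and 107.5, lowest in early pregnancy and not in late pregnancy as PGR was, and the homeobox factor MSX1 read 1708.5, 292.6 and 820. DKK1, a secreted Wnt inhibitor, peaked in early pregnancy at 4119.8, between 127.2 and 363.7 at the other stages, and the hormone STC1 did so at 749.2, between 109.5 and 170.3. Whether any of these genes followed the PGR signal was not tested. Between tissues 5 of 12 tested passed, beside 5.07% of all tested probe sets. The growth factor AREG (log2 difference 5.66), FOXO1 (1.86) and FKBP5 (1.997) were higher in ovary, and GATA2 (-2.65) and MSX1 (-3.005) were lower, with a limma adjusted p of 0.00358 for AREG, 0.0295 for FOXO1 and 0.0262 for MSX1.

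Genes that glucocorticoids induce were in part higher on the pregnant arrays labelled myometrium. Of 15 measured, 7 were 2-fold or more higher and 0 lower in early pregnancy, where 8.76% of all measured probe sets were higher and 10.3% lower. In late pregnancy 6 were higher and 2 lower, where 10.9% were higher and 12.6% lower. The kinase SGK1 read 736.7, 4879.2 and 3422.9, the cell cycle inhibitor CDKN1A 203.6, 1158.9 and 862.5 and the metallothionein MT1A 935.4, 3392.1 and 2228.7. These were highest in early pregnancy, when NR3C1 read 108.1. TSC22D3, the leucine zipper protein used as a marker of glucocorticoid action, read 1201.9, 1098.2 and 2973 and so was highest in late pregnancy, as NR3C1 was, whereas FKBP5 was lowest there. A link of these genes to the NR3C1 signal was not tested. In ovary PCK1, an enzyme of glucose synthesis, read 155.1, 222.7 and 674.1. Between tissues ANGPTL4 (log2 difference 2.67, limma adjusted p = 0.0223) and FKBP5 were higher in ovary, 2 of 15 tested, where 5.07% of all tested probe sets passed.

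Of the sodium transport genes, which aldosterone controls where HSD11B2 guards its receptor, 5 were measured in tissue labelled myometrium, and 2 were 2-fold or more higher and 1 lower in early pregnancy, and 4 higher and 1 lower in late pregnancy. Of all measured probe sets 8.76% were higher and 10.3% lower in early and 10.9% and 12.6% in late pregnancy. SGK1 and TSC22D3, 2 of the 5, are also counted among the glucocorticoid-induced genes. FXYD3, a regulator of the sodium pump, read 131.2, 2551.6 and 2500.8, the channel subunit SCNN1B 109.3, 199.4 and 331.2 and the pump subunit ATP1B1 8678.6, 1242.8 and 2187.9. Between tissues 0 of 5 tested passed by limma, where 5.07% of all tested probe sets did. Over all 8 lists, 68 genes were tested and 11 passed between tissues, 7 higher and 4 lower in ovary, where 2.84% of all tested probe sets were higher and 2.23% lower. Without the early pregnant arrays 0 passed by limma (21 at an unadjusted p under 0.05), without the late pregnant arrays 4 and without the non-pregnant arrays 7. Over all 15882 tested probe sets the count moved in the same way, from 805 to 0 (1790 at an unadjusted p under 0.05), 227 and 398.

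**Figure D4:**
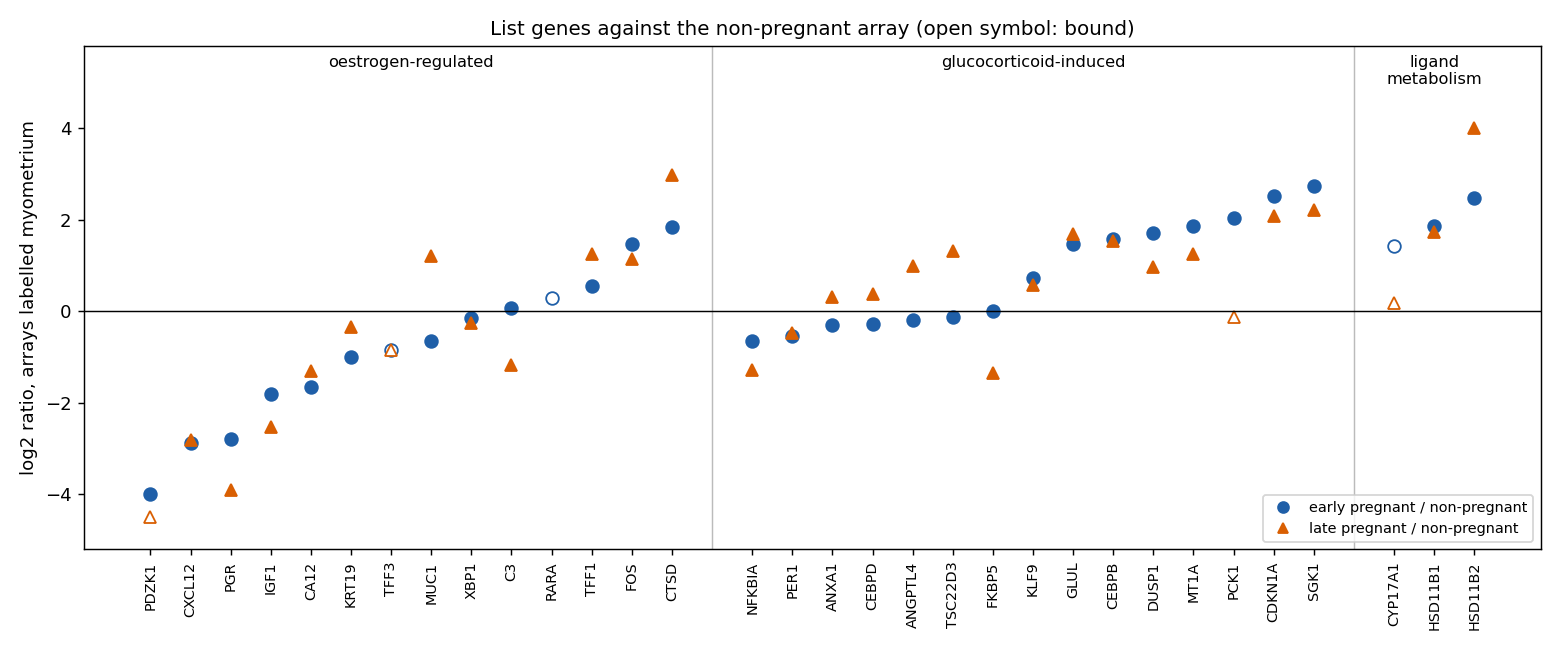
Log2 ratio of the early pregnant (circles) and late pregnant (triangles) array to the non-pregnant array labelled myometrium for the measured genes of 3 lists, each sorted by the early pregnant ratio, with open symbols for bounds. PDZK1, CXCL12 and PGR lie lowest among the oestrogen-regulated genes, SGK1 and CDKN1A lie highest among the glucocorticoid-induced genes in early pregnancy, and HSD11B2 reaches 4.01.

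The genes whose course over the 6 arrays was most like each of these were found by Pearson's r of log2 signals among 3014 genes with a range of 2-fold or more. Nearest to PGR were GNMT, which methylates glycine (r = 0.99, with 839.1, 150.7 and 34.2 on the arrays labelled myometrium), the transcription factor ETV5 (0.99) and the phosphatase PTPN6 (0.99). Nearest to ESR1 were CXHXorf38 (0.98), the Golgi protein GOLGA5 (0.98) and the DNA ligase LIG3 (0.98). Nearest to NR3C1 were RHOBTB1 (0.99), the sodium pump regulator FXYD6 (0.98) and CCDC8 (0.98). Nearest to HSD11B2 were CIAPIN1, which helps to build iron-sulphur proteins (0.99, with 750.5, 1583.6 and 2194.7), the vitamin transporter SLC5A6 (0.99) and the adenosine receptor ADORA1 (0.99). An r above 0.95 was shared by 44 genes for PGR, 9 for ESR1, 11 for NR3C1 and 79 for HSD11B2. All points share the same 6 arrays, and for PGR and ESR1 the non-pregnant array labelled myometrium sets much of the r. Signals under the floor were raised to it before r was taken. GNMT and ETV5 lay above it only on the non-pregnant and early pregnant arrays labelled myometrium. ADORA1 lay under it on both pregnant ovary arrays and the non-pregnant array labelled myometrium. PTPN6, LIG3 and CCDC8 also lay under it on some arrays. With low signals treated differently (a floor at the 25th percentile) PTPN6 was at 0.77, and with averaged probe sets GOLGA5 was at 0.63.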

How the data were processed

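Gene expression was measured on 6 single-channel Affymetrix arrays, 1 per tissue and stage, from biotin-labelled cRNA made from 6 ug of total RNA. The deposited table holds linear intensity signals, which the authors computed by MAS5 according to the labels and per the submitters' processing notes. The sources used here name neither version nor settings of MAS5. The trimmed mean (2% at each end) was 500.1 on every array, so scaling by the authors hides changes in total RNA. After 124 control probe sets were left out, 23999 remained. Gene names came from the platform annotation, checked by gene identifier against current records, and each gene was represented by its brightest probe set. Where a fold or count past 2-fold is given for stages, it comes from single arrays with no test.

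Signals under the 40th percentile (81.7) were raised to it before log2. limma 3.58.1 in R 4.3.3 fitted tissue and stage with an intensity trend and 2 residual degrees of freedom; 15882 probe sets with 2 or more arrays above the floor were tested with Benjamini-Hochberg adjustment at 0.05. The procedure was tested on simulated data. Python 3.11.15 drew the figures. Members and lists were chosen with earlier results of these data known. Named were all member probe sets, from each of 8 lists the genes past the threshold and up to 4 with the largest stage ratios measured above the floor on both arrays, and the 3 genes most alike each member among genes with a range of 1 or more in log2. The genes named beyond this rule were chosen after their values were seen. The number of arrays limits the precision. Alternatives were floors at the 25th and 60th percentile (33.7 and 246.2), a pseudocount of 16, quantile normalization, median centring, averaged probe sets, no filter, no trend, no block and each stage left out. Sequences and positions were not analysed here.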

Additional observations from a re-analysis of the deposited data

Results flagged for a closer look

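For each of the genes the log2 stage ratios had opposite signs in the tissues in 2 of the 3 stage comparisons. This is a description only, since the share of all probe sets with opposite signs was not counted. The 3 comparisons of a tissue also share their arrays, so their signs are not independent. The sign was the same for late against early pregnancy in PGR, ESR1 and HSD11B2 and for early pregnancy against non-pregnancy in NR3C1. That of ESR1 in ovary was -0.0081 and turned to 0.076 with quantile normalization and 0.12 with median centring. The differences were not tested, since each value rests on 4 single arrays. The difference between the tissues' log2 stage ratios, ovary minus myometrium, was 4.53 in ESR1 for early against non-pregnant (1.33 in ovary, -3.19 in the other tissue) and at least 4.79 for late against non-pregnant, where the late pregnant array labelled myometrium lay under the floor. For PGR it was 2.94 and 3.92, although the ovary ratios were close to 0, at 0.15 and 0.0023. For HSD11B2 it was -3.63 for early and -4.44 for late against non-pregnant, with ovary ratios of -1.17 and -0.43. For NR3C1 it was -2.14 for late against non-pregnant and -1.94 for late against early, with ovary ratios of -0.29 and -0.36. The second NR3C1 probe set gave -1.67 and -2.55 for these, with an array at the floor in each.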

How the results depend on the processing

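The tissue differences of PGR, NR3C1 and HSD11B2 kept their direction under every alternative run, and that of ESR1 reversed in 1. Leaving out each stage in turn gave -1.02 to 1.37 for ESR1, the highest without the non-pregnant arrays, and -3.63 to -1.41 for HSD11B2, which passed without the non-pregnant arrays, so the count of genes called was 0 to 1. With the floor at the 60th percentile PGR, ESR1 and NR3C1 were not tested between tissues. With that floor the log2 ratio of PGR was -2.61 both for late pregnant against non-pregnant tissue labelled myometrium and for ovary against that tissue in non-pregnancy. Those of ESR1 were -1.87 for early and late against non-pregnant tissue labelled myometrium and for ovary against it in non-pregnancy, and those of NR3C1 were 0.40 for late against non-pregnant and late against early; all have the dimmer array at the floor. With averaged probe sets NR3C1 gave 0.80 and 0.65 for these, and 0.42 and 0.51 for ovary against the other tissue in the non-pregnant and early pregnant pair, and a fitted tissue difference of 0.14 in place of 0.60. Of the 11 list genes called between tissues the count was 6 with averaged probe sets, 0 without the filter by limma (19 at an unadjusted p under 0.05) and 0 to 7 with a stage left out. Over all features tested, 805 were called, 642 with averaged probe sets, 0 without the filter (2782 unadjusted) and 0 to 398 with a stage left out. No paired analysis was possible because the labels give no replicate numbers and each group has 1 array; stage was the block between tissues, and without it no call of these genes changed. No shared stage change was called under any alternative run. Under quantile normalization or median centring none of the 2-fold stage ratios of these genes changed side. Signals close to the floor, as for PGR, ESR1 and NR3C1 on several arrays, limit these ratios.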
